A study of Mus musculus with 6 samples.

Results

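The flavin monooxygenases described here are the 4 genes Fmo1, Fmo2, Fmo4 and Fmo5, taken by symbol from a table of 21878 genes measured in small intestine tumors. All 4 have a row in the table. They were taken up as a family because Fmo2 had already been seen to fall after treatment in these same libraries. The PEGPH20 and vehicle values of the members are therefore a description, with no test of their own.

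Tumors came from mice of genotype Prkci f/f Prkcz f/f;Villin-Cre, in which both atypical protein kinase C genes are floxed and the recombinase is driven by the Villin promoter of the intestinal epithelium. Treated and control mice carried the same genotype, and the promoter is not active in the stroma. Dosing with PEGPH20, a pegylated hyaluronidase, at 0.0375 mg/kg began at 11 weeks of age and ran for 3 weeks, and tumors were collected at 14 weeks (3 PEGPH20 libraries, replicates 4 to 6). Control mice received vehicle under the same schedule (3 vehicle libraries, replicates 1 to 3). The labels do not say that each library is a separate mouse, so the spread between libraries may be partly technical.

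Flavin monooxygenases are membrane-bound enzymes of the endoplasmic reticulum that use NADPH, oxygen and a bound FAD to add an oxygen atom to soft nucleophiles such as the nitrogen of amines and the sulfur of thioethers. They handle drugs, dietary amines and some endogenous metabolites beside the cytochromes P450. The forms differ by tissue. Fmo2 is known from lung, and Fmo5, which also catalyses Baeyer-Villiger oxidations, from liver and intestine.

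Of the members, 3 lie side by side on the minus strand of chromosome 1 (GRCm38, GENCODE M21), and Fmo5 lies on chromosome 3. Fmo4 (ENSMUSG00000026692) spans chromosome 1 from 162793188 to 162813972, Fmo1 (ENSMUSG00000040181) from 162829561 to 162866610 and Fmo2 (ENSMUSG00000040170) from 162874317 to 162898726. The gap is 15.6 kb between Fmo4 and Fmo1 and 7.71 kb between Fmo1 and Fmo2. Fmo5 (ENSMUSG00000028088) spans chromosome 3 from 97628804 to 97655282 on the plus strand. The coding sequences of the 4 members were 57.6% to 61.5% identical in global alignments of their 6 pairs, and no pair shared a word of 30 nt in any annotated transcript. No other annotated gene overlapped a member. At the read length of 75 nt no annotated stretch was shared either.

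Start regions are shown for Fmo2, Fmo4 and Fmo5, the 3 members whose groups did not overlap. The source of the windows had no entry for Fmo1. Fmo2 and Fmo4 belong to the same cluster, and their values differed in opposite directions. Each window, from RefSeq on GRCm38.p6, holds 250 bases before and 50 bases after a listed start, read 5′ to 3′ on the gene's strand. Fmo2 is chr1:162898444-162898743 (minus), Fmo4 is chr1:162812500-162812799 (minus) and Fmo5 is chr3:97628769-97629068 (plus). Capitals mark a match to 1 of 8 short motifs searched on both strands.
Fmo2: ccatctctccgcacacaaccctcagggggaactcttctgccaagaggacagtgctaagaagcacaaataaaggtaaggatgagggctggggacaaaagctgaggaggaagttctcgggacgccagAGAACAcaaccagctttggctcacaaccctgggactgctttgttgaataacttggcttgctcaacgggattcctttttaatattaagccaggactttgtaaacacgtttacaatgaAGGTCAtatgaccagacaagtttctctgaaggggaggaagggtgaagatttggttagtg
Fmo4: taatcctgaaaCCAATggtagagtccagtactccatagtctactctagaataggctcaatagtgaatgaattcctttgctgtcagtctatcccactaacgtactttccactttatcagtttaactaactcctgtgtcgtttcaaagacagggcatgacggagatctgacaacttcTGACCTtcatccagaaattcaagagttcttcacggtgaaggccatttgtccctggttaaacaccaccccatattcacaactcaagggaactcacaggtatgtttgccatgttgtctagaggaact
Fmo5: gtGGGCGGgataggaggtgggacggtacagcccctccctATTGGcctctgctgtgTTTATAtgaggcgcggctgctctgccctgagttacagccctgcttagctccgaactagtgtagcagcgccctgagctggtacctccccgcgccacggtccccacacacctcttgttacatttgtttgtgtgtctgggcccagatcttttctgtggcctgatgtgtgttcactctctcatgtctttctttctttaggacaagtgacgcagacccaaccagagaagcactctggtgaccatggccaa

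The motifs were the TATA box TATAAA, the box written CCAAT, the GC box written GGGCGG, the nuclear receptor half-site AGGTCA, the glucocorticoid receptor half-site AGAACA, the HNF1 half-site GTTAAT, the E-box CACGTG and the antioxidant response element core TGACNNNGC. The Fmo2 window held AGAACA from position 126 and AGGTCA from position 242, counted from 1 at its 5′ end. Of 32851 mouse windows of the same length, 19.0% held the first and 16.3% the second. The Fmo4 window held CCAAT from position 12 and AGGTCA on the reverse strand from position 176. In the Fmo5 window, GGGCGG began at position 3, CCAAT on the reverse strand at position 40 and TATAAA on the reverse strand at position 56. These 3 motifs occurred in 35.7%, 37.4% and 13.6% of all windows. No 2 matches overlapped. GENCODE places starts of Fmo5 transcripts further upstream than the listed start, at positions 36 to 115 of the window. It places starts of coding Fmo2 transcripts at positions 32, 79 and 260. Both Fmo2 matches thus lie downstream of the starts at 32 and 79, and upstream only of that at 260. The Fmo5 matches at positions 40 and 56 lie downstream of its start at 36. A further Fmo2 window that begins upstream, chr1:162898709-162899008, held none of the motifs. GC content was 47.7% in the Fmo2 window shown, 42.7% for Fmo4 and 56.0% for Fmo5, against a median of 52.7% over all windows.

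Libraries held 2075588 to 2832876 reads, and 1 read was worth 0.353 to 0.482 CPM. PEGPH20 replicate 5 was unlike the others, with a Pearson correlation across genes of 0.937 to 0.958 with them, against 0.971 to 0.984 among the other 5. Values are also given without it. In the fit across 11389 genes (limma on log2(CPM + 1), Benjamini-Hochberg adjusted p under 0.05) 9 genes passed, 3 higher and 6 lower after PEGPH20. Under TMM scaling the same number split into 4 higher and 5 lower. The median log2 difference over all genes tested was -0.094, with 4578 of them above 0, and 2050 genes had an unadjusted p under 0.05. TMM scaling brought that median to -0.0077.

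Fmo2 was low in every PEGPH20 tumor, and Fmo5 was higher in each of them than in any vehicle tumor. Fmo5, close to Fmo2 in vehicle tumors, thus outnumbered it in all PEGPH20 libraries. Fmo4 was higher too, but only narrowly, with 9.56 CPM in PEGPH20 replicate 6 against 9.15 CPM in vehicle replicate 1. Of the 4 members, 3 passed the filter on low values, and in each of these 3 all 6 libraries lay above its minimum of 3.99 CPM. One member, Fmo2, was past the threshold, where 0.0790% of all genes tested were. Groups did not overlap for any of these 3, where this held for 27.3% of all genes tested. Since the family was chosen on this contrast, nothing is read from either count.

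**Figure D1:**
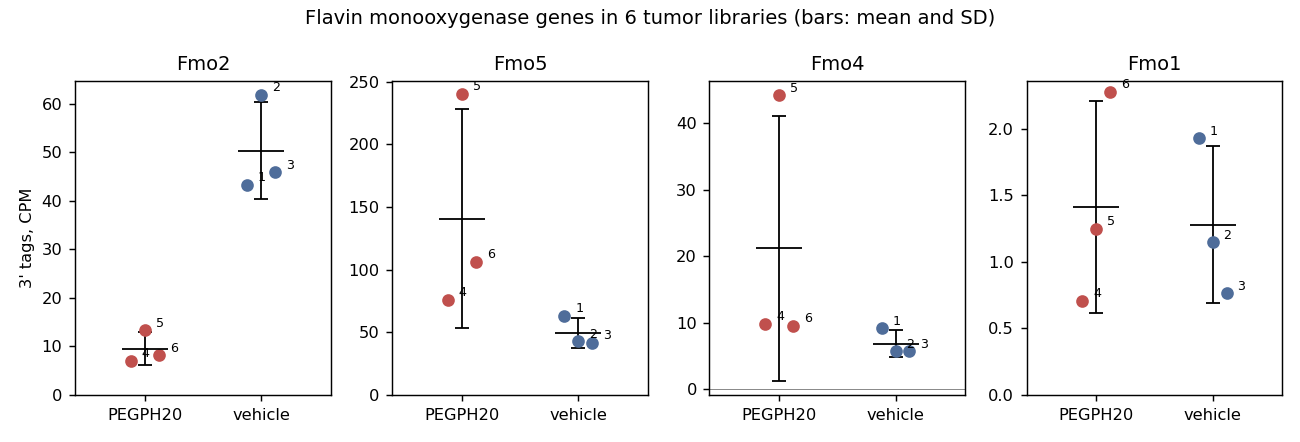
Level of each member in CPM (y axis, linear, a separate scale per gene) in PEGPH20 and vehicle tumor libraries. Points are libraries with their replicate numbers, and bars are the mean and SD of 3. Fmo2 averaged 9.53 CPM in PEGPH20 and 50.4 CPM in vehicle tumors without overlap, and PEGPH20 replicate 5 was the highest point for Fmo5 (240.5 CPM) and Fmo4 (44.2 CPM).

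Fmo2 had 7.06, 13.3 and 8.19 CPM in PEGPH20 replicates 4, 5 and 6, against 43.4, 61.9 and 45.9 CPM in vehicle replicates 1, 2 and 3. The highest PEGPH20 library was well below the lowest vehicle library. Means were 9.53 ± 3.35 CPM in PEGPH20 and 50.4 ± 10.1 CPM in vehicle tumors (SD, n = 3 each), from 70 reads in all PEGPH20 and 372 reads in all vehicle libraries. The log2 difference was -2.31 (SE 0.26), and the PEGPH20 mean was 0.189 of the vehicle mean. Without PEGPH20 replicate 5 the difference was -2.56 (SE 0.20), and Fmo2 was 1 of 339 genes past the threshold (2.98% of genes tested). Fmo2 was past the threshold in 10 of 20 settings and lay between -2.72 and -1.94 in all of them. The share of all genes past the threshold ran from 0.00878% to 7.65%. The edgeR and TMM fits without PEGPH20 replicate 5 were added after the data were seen. Fmo2 passed in both, and the value of -2.72 came from that edgeR fit.

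The Fmo2 call was close to its limit. It was lost under TMM, RLE and upper quartile scaling, in edgeR's quasi-likelihood test and with a pseudocount of 0.1. It was also lost on leaving out any single library other than PEGPH20 replicate 5. The difference then lay between -2.41 and -2.14, with limma adjusted p from 0.0786 to 0.342.

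**Figure D2:**
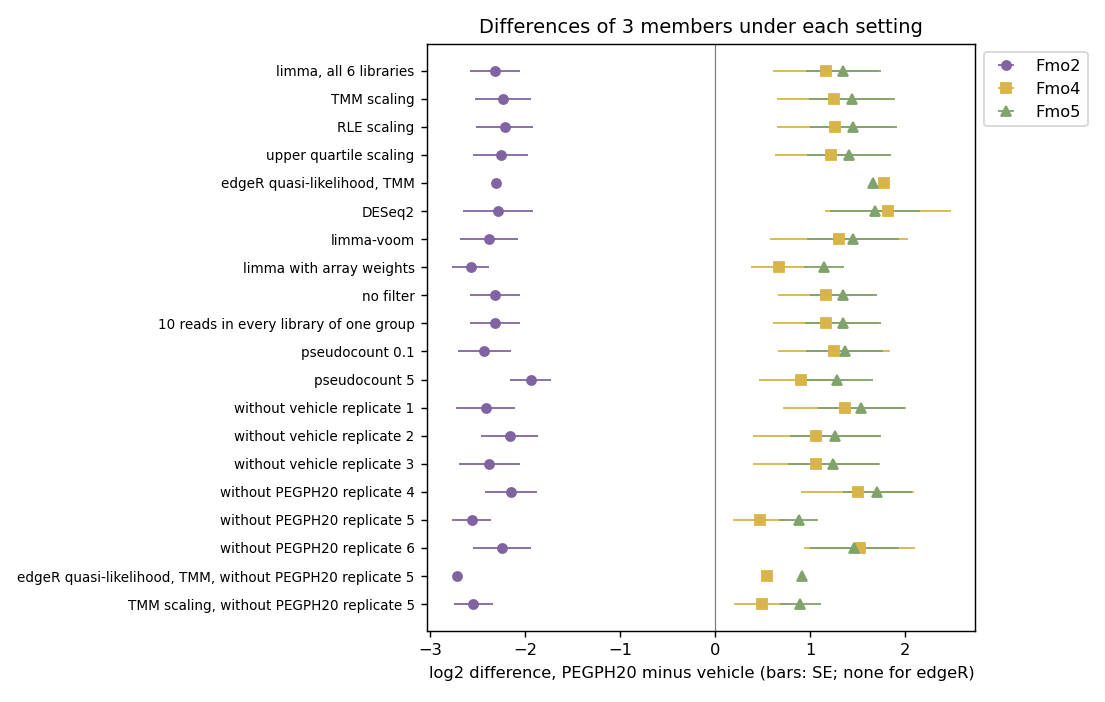
Log2 difference between PEGPH20 and vehicle tumors (x axis, bars SE, none given by edgeR) of Fmo2, Fmo4 and Fmo5 under 20 settings (y axis). Fmo2 stayed between -2.72 and -1.94, while Fmo5 ran from 0.88 to 1.71 and Fmo4 from 0.47 to 1.82, both lowest where limma was run on CPM without PEGPH20 replicate 5.

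Fmo5 had 75.9, 240.5 and 106 CPM in PEGPH20 replicates 4, 5 and 6, against 63.1, 42.8 and 41.7 CPM in vehicle replicates 1, 2 and 3. All PEGPH20 libraries were above all vehicle libraries, replicate 5 by far the most. The mean was 141 ± 87.6 CPM in PEGPH20 and 49.2 ± 12.1 CPM in vehicle tumors (SD, n = 3 each). The log2 difference was 1.35 (SE 0.40), not past the threshold, and 0.88 (SE 0.21) without replicate 5. Fmo5 passed in 3 of 20 settings. These were DESeq2, limma with array weights and, added after the data were seen, edgeR without PEGPH20 replicate 5. In those settings 2.43%, 7.65% and 3.70% of all genes tested passed.

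Fmo4, whose substrates are less well known than those of the other forms, was the member that depended most on 1 library. Its levels were 9.88, 44.2 and 9.56 CPM in PEGPH20 replicates 4, 5 and 6, and 9.15, 5.73 and 5.73 CPM in vehicle replicates 1, 2 and 3. PEGPH20 replicate 6 and vehicle replicate 1 were nearly level, at 21 and 19 reads. Their exact Poisson intervals (95%, counting error only) were 5.92 to 14.6 CPM and 5.51 to 14.3 CPM. The log2 difference was 1.16 (SE 0.55) with all libraries and 0.47 (SE 0.29) without replicate 5. Fmo4 was not past the threshold in any of the 20 settings.

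Fmo1, which oxidizes hypotaurine to taurine, was barely detected and did not pass the filter. It had 2, 3 and 5 reads in PEGPH20 replicates 4, 5 and 6, and 4, 3 and 2 reads in vehicle replicates 1, 2 and 3, or 1.41 ± 0.80 CPM and 1.28 ± 0.59 CPM (SD, n = 3 each). The groups overlapped, and a difference was not detectable at this depth.

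The kit reads tags near the 3′ end, so that CPM does not grow with transcript length and reads can be set side by side within the family without dividing by length. Fmo2 made up 7.55%, 4.46% and 6.50% of the reads on the 4 members in PEGPH20 replicates 4, 5 and 6 (exact Clopper-Pearson 95% intervals 4.67% to 11.4%, 3.07% to 6.23% and 3.90% to 10.1%). In vehicle replicates 1, 2 and 3 its share was 36.9%, 55.5% and 48.8% (intervals 30.8% to 43.3%, 49.6% to 61.3% and 42.4% to 55.2%). Fmo5 made up 80.4% to 84.1% of these reads in PEGPH20 and 38.4% to 53.7% in vehicle libraries. The intervals cover counting error only. Shares within a library trade off, so a lower Fmo2 share by itself raises the Fmo5 share. In CPM the nearest Fmo5 libraries were PEGPH20 replicate 4 (75.9) and vehicle replicate 1 (63.1). Their exact Poisson 95% intervals, 66.1 to 86.7 and 52.8 to 74.9 CPM, overlapped. The family was chosen on the fall of Fmo2, so the shares restate the CPM values.

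**Figure D3:**
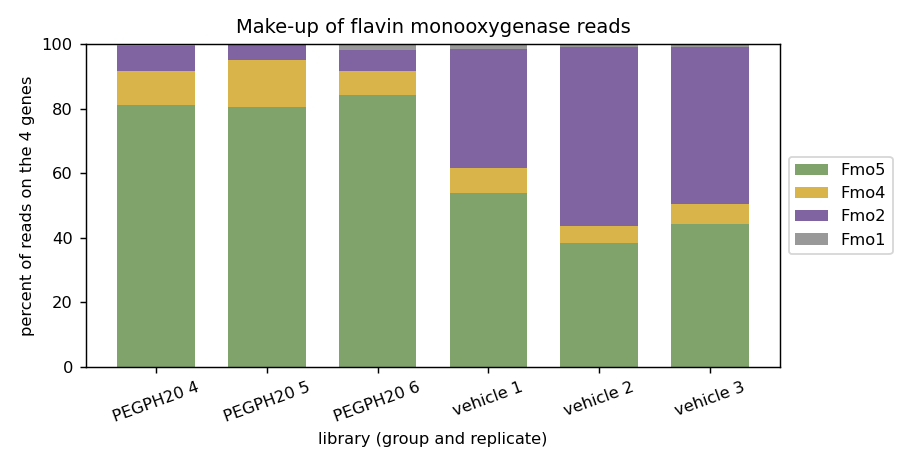
Share of the reads on the 4 members (y axis, percent) taken by each gene in each library (x axis, group and replicate). Fmo2 fills 4.46% to 7.55% of the bars in PEGPH20 libraries and 36.9% to 55.5% in vehicle libraries.

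The ratio of Fmo5 to Fmo2 reads was 10.8, 18.0 and 12.9 in PEGPH20 replicates 4, 5 and 6, against 1.46, 0.691 and 0.908 in vehicle replicates 1, 2 and 3. Being taken within a library, this ratio does not depend on scaling. In CPM, Fmo2 and Fmo5 already lay apart between groups in opposite directions, so the ratio had to separate the groups. It restates those values, and nothing more is read from it. The ratio of Fmo5 to Fmo4 reads did not separate the groups, at 7.68, 5.44 and 11.1 in PEGPH20 and 6.89, 7.47 and 7.27 in vehicle libraries. The summed level of the 4 members overlapped between groups as well, at 93.5, 299 and 126 CPM in PEGPH20 and 118, 112 and 94.0 CPM in vehicle libraries.

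Most stromal markers had lower values and most enterocyte markers higher values in PEGPH20 tumors. In bulk tumors, fewer cells of a type and less RNA per cell cannot be told apart. Of all 11389 genes tested, 2050 had an unadjusted p under 0.05 in limma. The adjusted threshold was passed by 0.0790% of them in limma and by 2.43% in DESeq2. Without PEGPH20 replicate 5 limma passed 2.98%. Counts of list genes here and below stand beside these shares. Of 12 tested fibroblast markers, of 15 listed, 11 had lower values after PEGPH20 (median log2 difference -1.20, against -0.094 over all genes), 0 past the threshold with all libraries. At an unadjusted p under 0.05 limma gave 9, and after adjustment edgeR and limma-voom gave 0 and DESeq2 gave 8. Without PEGPH20 replicate 5 the median was -0.83 and 9 passed, all lower, Col3a1 and Pdgfra among them. The summed fibroblast level was 732 to 1821 CPM in PEGPH20 and 3322 to 3418 CPM in vehicle libraries, and Pi16 and C7 had 3 reads or fewer in every library. All 13 tested blood endothelial markers, of 15 listed, were lower (median -0.90), at 171 to 284 CPM summed in PEGPH20 and 432 to 460 CPM in vehicle libraries, with 0 past the threshold in limma and edgeR, 1 in limma-voom, 3 in DESeq2 and 11 at an unadjusted p under 0.05 in limma. Without replicate 5 the endothelial median was -0.62 and 4 genes passed, which were Eng, Kdr, Ptprb and Vwf. Lymphatic markers were lower in 5 of 5 tested (median -0.77), at 46.4 to 62.5 CPM in PEGPH20 and 92.1 to 111 CPM in vehicle libraries. Smooth muscle and pericyte markers were lower in 11 of 11 (median -0.53), at 567 to 798 CPM in PEGPH20 and 836 to 973 CPM in vehicle libraries. With all libraries 0 genes of either list passed in limma, limma-voom and edgeR and 1 of each in DESeq2, with 3 lymphatic and 5 smooth muscle and pericyte genes at an unadjusted p under 0.05 in limma. Without replicate 5 the lymphatic receptor gene Lyve1 fell (-1.19, limma adjusted p = 0.00382), and 0 smooth muscle and pericyte genes passed in limma.

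The level of Fmo2 was set beside 2 of these lists as a description, since the contrast that chose the family is the same. Relative to the mean log2(CPM + 1) of the fibroblast markers, Fmo2 lay at -3.23, -1.47 and -2.76 in PEGPH20 replicates 4, 5 and 6 and at -1.51, -0.96 and -1.15 in vehicle replicates 1, 2 and 3. The difference between group means was -1.28 (pooled SD 0.67), and -1.79 (pooled SD 0.30) without PEGPH20 replicate 5. PEGPH20 replicate 5 lay just above vehicle replicate 1 on this measure, so the groups overlapped. Relative to the endothelial markers Fmo2 lay at -1.09, 0.53 and -0.69 in PEGPH20 and at 0.68, 1.32 and 0.96 in vehicle libraries. The difference was -1.41 (pooled SD 0.64), and the groups only narrowly did not overlap. Among the PEGPH20 libraries, replicate 5 had the lowest fibroblast and endothelial levels and the highest Fmo2. Fmo2 had 20, 32 and 18 reads in PEGPH20 replicates 4, 5 and 6. Their exact Poisson 95% intervals overlapped, at 4.31 to 10.9, 9.12 to 18.8 and 4.86 to 12.9 CPM. Nothing is read from their order.

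**Figure D4:**
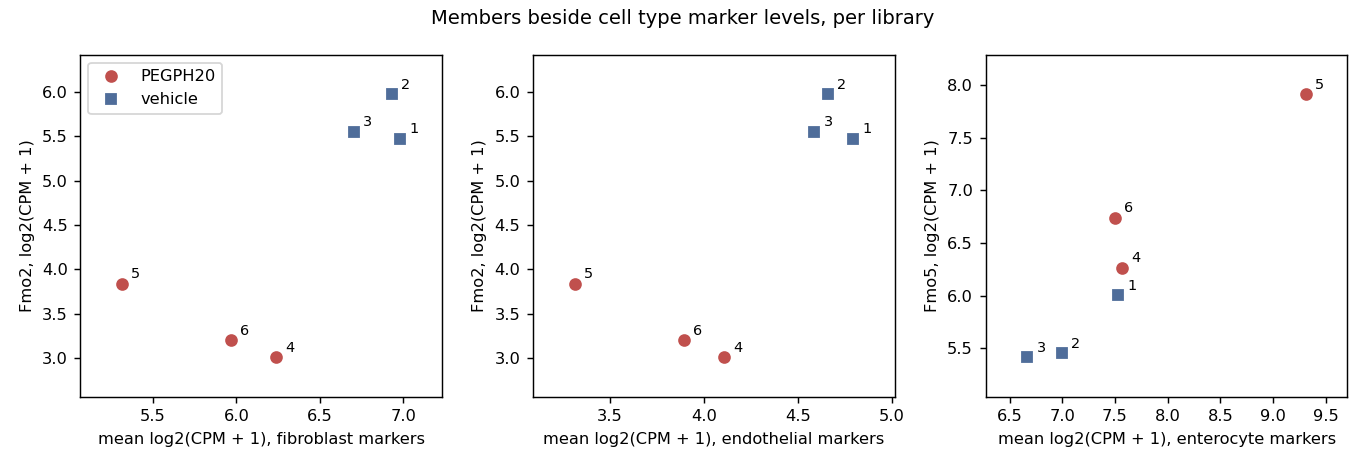
Level of Fmo2 (left and middle) and Fmo5 (right) in log2(CPM + 1) (y axes) against the mean log2(CPM + 1) of fibroblast, endothelial and enterocyte markers (x axes), 1 point per library with its replicate number. PEGPH20 libraries lie low on both axes for Fmo2, and PEGPH20 replicate 5 is the far point at the upper right for Fmo5.

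Fmo5 and most enterocyte markers had higher values after PEGPH20, and both Fmo5 and the summed marker level were highest in PEGPH20 replicate 5. Fmo5 did not overlap between groups, and neither did 4 of the 18 tested enterocyte markers, Mep1b among them. This held for 27.3% of all genes tested. The summed marker level overlapped. Of 18 enterocyte markers tested, 17 had higher values after PEGPH20 (median log2 difference 0.81). Among them 0 passed the threshold in limma, limma-voom and edgeR and 3 in DESeq2, where 2.43% of all genes tested passed. At an unadjusted p under 0.05 limma gave 5, against 2050 of all 11389 genes tested. The summed enterocyte level was 7556, 22639.9 and 7603 CPM in PEGPH20 replicates 4, 5 and 6, and 9462, 6145 and 4863 CPM in vehicle replicates 1, 2 and 3, so that replicate 5 stood alone and the other libraries overlapped. Relative to the enterocyte markers Fmo5 lay at -1.30, -1.39 and -0.76 in PEGPH20 and at -1.53, -1.54 and -1.25 in vehicle libraries. The groups overlapped, and the difference of 0.29 (pooled SD 0.27) became 0.41 (pooled SD 0.26) without PEGPH20 replicate 5 and 0.092 (pooled SD 0.14) without PEGPH20 replicate 6. Without replicate 5 the enterocyte median was 0.36, with Mep1b past the threshold. The part of these markers in the levels of Fmo2 and Fmo5 was not tested.

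Marker lists of liver, pancreas and mesothelium had few detected genes, and macrophage and crypt levels overlapped between groups. Of 8 hepatocyte markers, Serpina1a, Fgb, Apoh and Hpx had 3 reads or fewer in every library and Alb and Ahsg had no row. Cps1, which enterocytes also express, made up most of the summed 101 to 253 CPM in PEGPH20 and 60.8 to 68.8 CPM in vehicle libraries. Pancreatic acinar markers summed to 21.7 to 37.8 CPM in PEGPH20 and 38.6 to 46.3 CPM in vehicle libraries, nearly all from Cela1, with Cpa1, Cpb1, Ctrb1 and Cel at 3 reads or fewer in every library. Mesothelial and adipocyte markers summed to 37.9 to 63.5 CPM in PEGPH20 and 81.8 to 120 CPM in vehicle libraries, with Upk3b, Adipoq and Plin1 at 3 reads or fewer in every library. Macrophage markers were at 178 to 255 CPM in PEGPH20 and 240 to 249 CPM in vehicle libraries, with a median of -0.10 over 8 genes and of 0.066 without PEGPH20 replicate 5. Stem and crypt markers had a median of 0.89 over 9 genes, and of 0.54 without replicate 5, at 918, 3865 and 631 CPM in PEGPH20 replicates 4, 5 and 6 and 497 to 700 CPM in vehicle libraries. With all libraries none of these 5 lists had a gene past the threshold in limma, limma-voom or edgeR, and DESeq2 called 1, Cps1. At an unadjusted p under 0.05 limma gave 4 crypt genes and 1 gene in each of the other 4 lists, against 2050 of all 11389 genes tested. The mesothelial gene Msln had 11.3, 0 and 13.2 CPM in PEGPH20 replicates 4, 5 and 6, and 52.0, 28.3 and 52.0 CPM in vehicle replicates 1, 2 and 3, without overlap. Its log2 difference was -2.96 (SE 0.94, limma adjusted p = 0.185), against -2.31 (SE 0.26) for Fmo2, and rested in part on 0 reads in PEGPH20 replicate 5. Without that replicate Msln fell (-1.72, limma adjusted p = 0.00921) by less than Fmo2 (-2.56), and Cps1 rose (0.98, limma adjusted p = 0.0102). The part of Msln-expressing cells in the Fmo2 level was not tested.

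No gene that supplies the cofactors of flavin monooxygenases passed the threshold in limma, limma-voom, edgeR or DESeq2. An unadjusted p under 0.05 in limma was found for 1, in the FAD list, and for 2050 of all 11389 genes tested. All 4 genes of riboflavin transport and FAD synthesis had higher values after PEGPH20 (median log2 difference 0.48), 0 past the threshold. Without PEGPH20 replicate 5 the median was 0.19, with 3 of 4 higher. Rfk, the riboflavin kinase that makes FMN, had 594, 1311 and 512 CPM in PEGPH20 replicates 4, 5 and 6, and 477, 386 and 470 CPM in vehicle replicates 1, 2 and 3. All PEGPH20 libraries were above all vehicle libraries, and the log2 difference of Rfk was 0.73 (limma adjusted p = 0.293), and 0.32 without replicate 5. Of 11 tested NADPH supply genes 6 were higher and 5 lower (median 0.0028), 0 past the threshold, while without replicate 5 the count was 9 higher and 2 lower (median 0.20). Their leading members by level, Pgd of the pentose phosphate pathway and the isocitrate dehydrogenase gene Idh1, overlapped between groups.

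Other oxygenases and amine oxidases differed in both directions. With all libraries none passed in limma, limma-voom or edgeR, while DESeq2, which passed 2.43% of all genes tested, called Cyp1b1, Cyp4f14 and Aoc1. An unadjusted p under 0.05 in limma was found for 6 P450 system genes and 3 amine oxidases, against 2050 of all 11389 genes tested. Without PEGPH20 replicate 5 limma passed 2.98% of all genes. Of 18 tested genes of the cytochrome P450 system, 11 were higher and 7 lower (median 0.39), 0 past the threshold with all libraries. Without replicate 5 the P450 median was -0.091, with 8 higher and 10 lower. Cyp1b1, a P450 of stromal and endothelial cells, had 35.3, 8.75 and 27.3 CPM in PEGPH20 and 72.8, 72.6 and 84.1 CPM in vehicle libraries. Cyp4f14, a fatty acid hydroxylase, had 225, 563 and 175 CPM in PEGPH20 and 134, 111 and 120 CPM in vehicle libraries. Neither overlapped between groups, and without replicate 5 Cyp1b1 fell (log2 difference -1.27, limma adjusted p = 0.00294) and Cyp4f14 rose (0.70, limma adjusted p = 0.0278). Among 6 tested amine oxidases (3 higher, 3 lower, 0 past the threshold with all libraries), Aoc1, the diamine oxidase of the gut epithelium, had 86.1, 301 and 62.4 CPM in PEGPH20 and 33.2, 24.1 and 31.0 CPM in vehicle libraries. Paox, a polyamine oxidase, had 24.7, 8.34 and 34.1 CPM in PEGPH20 and 51.1, 50.9 and 49.7 CPM in vehicle libraries. Without replicate 5 Aoc1 rose (1.30, limma adjusted p = 0.00836) and Paox fell (-0.78, limma adjusted p = 0.0383).

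Of 5 tested flavin-dependent monooxygenases of other families, 2 were higher and 3 lower (median -0.17), 0 past the threshold, and without PEGPH20 replicate 5 the count was 4 higher and 1 lower (median 0.096). Sqle, the squalene epoxidase, averaged 145 ± 60.2 CPM in PEGPH20 and 168 ± 17.0 CPM in vehicle tumors (SD, n = 3 each). Of 5 tested genes of cysteamine, hypotaurine and taurine handling, 2 were higher and 3 lower (median -0.21, and -0.061 without replicate 5), 0 past the threshold. Vnn1, a pantetheinase that releases cysteamine, had 52.6, 160.9 and 31.0 CPM in PEGPH20 and 22.6, 14.9 and 10.3 CPM in vehicle libraries without overlap. Of 11 tested transcription factors of liver, intestine and ligand response, 8 were higher and 3 lower (median 0.24), 0 past the threshold. Hnf4a, a nuclear receptor of hepatic and intestinal epithelium, averaged 224 ± 8.59 CPM in PEGPH20 and 179 ± 13.6 CPM in vehicle tumors. In these 3 lists limma-voom and edgeR also called 0 genes and DESeq2 called 1, Vnn1. At an unadjusted p under 0.05 limma gave 0 other flavin-dependent monooxygenases, 1 taurine gene and 3 transcription factors, against 2050 of all 11389 genes tested.

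None of the tested genes around the members passed the threshold with all libraries in limma, limma-voom, edgeR or DESeq2. An unadjusted p under 0.05 in limma was found for 1 on chromosome 1 and 3 on chromosome 3, and for 2050 of all 11389 genes tested. Within 500 kb of the 3 members on chromosome 1, 6 other genes were tested, of which 1 was higher and 5 were lower, with log2 differences from -1.30 to 0.26 and 0 past the threshold. Prrc2c, which lies 52.6 kb from Fmo4, had a difference of -0.19, and the mesenchymal factor Prrx1, 346 kb from Fmo2, one of 0.26. Dnm3, a dynamin, was the lowest at -1.30 (limma adjusted p = 0.121), with 3.10 ± 0.56 CPM in PEGPH20 and 9.07 ± 0.91 CPM in vehicle tumors (SD, n = 3 each), and passed without PEGPH20 replicate 5. Within 500 kb of Fmo5, 3 of 8 tested genes were higher and 5 lower, from -0.80 to 0.74, with 0 past the threshold. Prkab2, 2.91 kb from Fmo5, had a difference of -0.58.

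**Figure D5:**
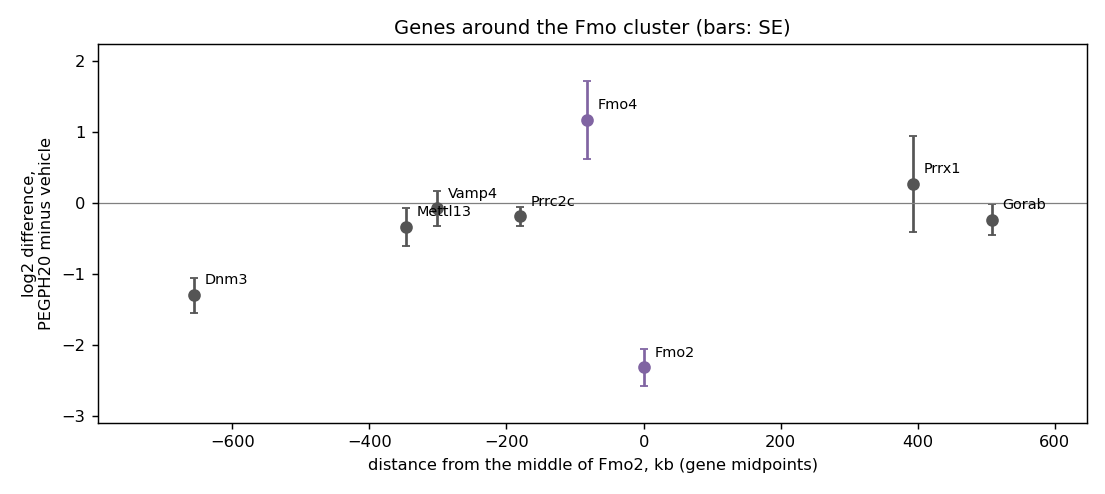
Log2 difference between PEGPH20 and vehicle tumors (y axis, bars SE) of tested genes around the chromosome 1 cluster against the distance of their midpoints from the middle of Fmo2 in kb (x axis). Fmo2 (-2.31) and Fmo4 (1.16) lie below and above the 6 other genes, which span -1.30 to 0.26.

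The genes most like each member over the 6 libraries were ranked by Pearson's r on log2(CPM + 1) among 9553 annotated genes with a mean of at least 3, as a description. Points in both groups and the outlying library shape these values. The 5 most like Fmo2 were Rpap3, Itsn1, the cell cycle inhibitor Cdkn1a, Zfp386 and Zfp110 (r = 0.98 for each). Their PEGPH20 values were lower by far less than those of Fmo2, with log2 differences from -0.63 to -0.25. Cdkn1a had 357, 390.1 and 329 CPM in PEGPH20 and 486, 518 and 517 CPM in vehicle libraries. The 3 most like Fmo5 were the sulfotransferase gene Sult1b1, the ATP synthase gene Atp5c1 and Reep6 (r = 0.999, 0.995 and 0.994). Sult1b1 had 269, 728 and 367 CPM in PEGPH20 and 251, 178 and 169.7 CPM in vehicle libraries, the same order of libraries as Fmo5. For Fmo4 they were Sec31a, Nsmce4a and the glycerol kinase gene Gk, each led by PEGPH20 replicate 5.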

How the data were processed

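RNA of 6 tumors was made into QuantSeq forward 3′ mRNA libraries with optional molecular identifiers, per the labels' protocols. The authors deposited a signal in CPM, gene counts scaled so that the gene rows of each library sum to 1000000. The build is GRCm38, per the submitters' processing notes. Aligner, counter, strand setting and whether identifiers were collapsed: not given in the sources used here. A row of totals was left out. Whole reads were recovered by division (tolerance 1e-06 of a read; 100% of values came out whole). GENCODE M21 named 21786 of 21878 identifiers.

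The planned limma 3.58.1 fit with a mean-variance trend was run on log2(CPM + 1), which understates changes of low genes. Genes were kept by filterByExpr (minimum count 10, edgeR 4.0.16), leaving 11389. Fold changes are PEGPH20 minus vehicle. Alternatives included DESeq2 1.42.0. The count of the 15 library pairs that looked like duplicates was nil, with chi-square per degree of freedom of 2.42 or more. Members, gene lists and tests were chosen with earlier results of these data known. Genes open to naming were the members, the 2 most abundant genes of each list, list genes past the threshold, genes within 500 kb and the most similar profiles. List genes past it without PEGPH20 replicate 5 were added after their values were seen, and the text names some of all these, chosen likewise. R 4.3.3 and Python 3.11.15 were used.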

Additional observations from a re-analysis of the deposited data

How the results depend on the processing

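The direction of Fmo2, Fmo4 and Fmo5 was the same in all 20 settings run. All settings reuse the same 6 libraries, and these members' groups did not overlap in CPM. Leaving out a library could therefore not reverse a direction, and nothing is read from this agreement. No paired analysis was possible because the groups share no replicate number. Fmo2 missed the threshold at a log2 difference of -2.23 (TMM), -2.21 (RLE), -2.26 (upper quartile), -2.30 (edgeR) and -2.43 (pseudocount 0.1), with adjusted p from 0.0532 to 0.0585, and 0 members passed in these settings. Leaving out 1 library gave -2.56 to -2.14 for Fmo2, 0 to 1 members and 1 to 339 genes past the threshold, the highest without PEGPH20 replicate 5. The limma adjusted p of Fmo2 was 0.308, 0.303 and 0.342 without vehicle replicates 1, 2 and 3. It was 0.0786 and 0.149 without PEGPH20 replicates 4 and 6, and 0.000369 without PEGPH20 replicate 5. Fmo5 passed in DESeq2 (1.68), with array weights (1.14) and in edgeR without PEGPH20 replicate 5 (0.91), each with 2 members past the threshold. Genes past the threshold numbered 10 in edgeR on the recovered reads, 277 in DESeq2, 18 in limma-voom, 871 with array weights, 29 without the filter, and without PEGPH20 replicate 5 421 in edgeR and 412 under TMM, against 9 with limma. The last 2 settings and the list medians under TMM and without replicate 5 were chosen after seeing the data. Without replicate 5 the medians of the other flavin-dependent monooxygenases (0.10), the P450 system (-0.091) and macrophage markers (0.066) changed sign, and the cause was not tested. Fmo1 had a value only without the filter (0.06). At 2 to 5 reads per library, depth limits what can be said of Fmo1.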
